A study of Homo sapiens with 48 samples.

Results

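The 24 h effect of FHT-1015 was compared among 3 human uveal melanoma cell lines, 92-1, MEL202 and MP41. The comparison takes 18 of the 48 samples of the series, those of the FHT-1015 experiments collected at 24 h after FHT-1015 or DMSO. Each of the 6 groups has 3 samples. The series also holds 92-1 DMSO replicates 4 to 6 at 24 h, which were grouped with an IDE196 experiment and not used. The question is which genes moved in 1 line and not in the others, and which moved in opposite directions, so that a gene enters through the difference between its effects and not through the effect itself. Every line is labelled as uveal melanoma with genotype WT, the DMSO groups are labelled as negative controls, and the labels number the samples as biological replicates; a dose of FHT-1015 is not given in the sources used here. P-values measure the spread between these replicate samples of 1 culture model each, and a difference between lines is a difference between 3 cell lines, not between classes of tumour. The 18 samples of the same FHT-1015 experiments collected at 4 h are used below as a second reading. The 92-1 DMSO replicates 4 to 6 at 4 h were not used either.

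FHT-1015 inhibits SMARCA4 (BRG1) and SMARCA2 (BRM), the alternative ATPase subunits of the BAF chromatin remodelling complexes, which move nucleosomes and keep enhancers accessible to transcription factors. Uveal melanoma arises from the melanocytes of the eye, is usually driven by activating mutations of the Gq-class G proteins, and depends on melanocyte transcription factors such as SOX10 and MITF.

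Reads assigned to genes ranged from 11991337 to 32317711 per sample. Melanocyte markers were present in DMSO samples of all lines (PMEL from 2890 to 10400 in CPM, read counts scaled to library size), with DCT, the dopachrome tautomerase of pigment synthesis, at or below 8.69 CPM in 92-1 and 1.40 CPM in MEL202. Of the 12 markers of other cell types that were looked at, RPE65 and CD3E were at or near 0, and 3 reached over 3 CPM: the fibroblast genes LUM and PDGFRA and the retinal pigment epithelium gene RLBP1. LUM was at 3.67 to 11 CPM with DMSO and 10.3 to 11.2 CPM with FHT-1015 in MP41, and at or below 1.40 CPM in the other lines. PDGFRA was higher in treated samples, at 0.684 to 0.878 CPM with DMSO and 3.07 to 4.99 CPM with FHT-1015 in 92-1, 0.572 to 0.638 and 2.41 to 4.12 CPM in MEL202, and 1.19 to 1.24 and 1.67 to 2.96 CPM in MP41. RLBP1 was lower in treated samples, at 4.45 to 6.59 and 0.499 to 0.858 CPM in 92-1 and 1.96 to 5.03 and 0.118 to 0.803 CPM in MP41, and under 1 CPM in MEL202. The part of these markers in the results was not tested. Replicates were not equally close. MP41 DMSO replicates 2 and 3 departed from the other MP41 DMSO samples with an SD of 0.76 and 0.74 over genes on the log2 scale, and these departures correlated across genes with the GC content of the transcripts at 0.78 and -0.77. MEL202 DMSO replicates 1 and 2 departed by 0.43 and 0.42, with correlations of -0.62 and 0.69 with transcript length. The biological coefficient of variation was 0.12 in 92-1, 0.17 in MEL202 and 0.29 in MP41, whereas the single fit used here gave the effects of the 3 lines nearly equal median standard errors (0.26, 0.25 and 0.25 on the log2 scale), above what the spread within 92-1 alone would give and below that of MP41. For the named genes, MP41 effects are therefore also given without either of these 2 libraries where leaving it out ended or added the call there or moved a called value by over 1.5 times.

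Among 17905 genes tested, the effect of FHT-1015 differed among the lines for 2404 (13.4%) at an adjusted p under 0.05 in edgeR's quasi-likelihood F-test. By pairs, effects differed for 1029 genes between 92-1 and MEL202 (5.75%; effect in 92-1 above that in MEL202 for 2.57% and below for 3.18% of genes tested), for 1716 between 92-1 and MP41 (9.58%; above for 5.29% and below for 4.29%) and for 1154 between MEL202 and MP41 (6.45%; above for 3.93% and below for 2.51%). The effects themselves were called for many more genes: 6634 in 92-1 (37.1%; 18.3% higher and 18.7% lower), 5515 in MEL202 (30.8%; 14.8% and 16%) and 6201 in MP41 (34.6%; 15.5% and 19.2%). On simulated counts with the depth and means of these samples, the test of a difference among lines called 33% of genes that had been given a log2 difference of 1 in 1 line and 92% of those given 2, so a gene absent from the lists below may still differ by a log2 unit. Without MP41 DMSO replicate 3 the number of differing genes was 5729, and without replicates 2 and 3 together it was 3993; 2190 of the 2404 genes (91.1%) remained called in the latter case. Each fit without 2 DMSO libraries leaves that group with 1 library, which is assumed to vary like the other groups, so its counts and p-values describe the remaining samples and are no test of stability.

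Opposite calls made up a minority of the genes with differing effects. Of the 2404, 492 (20.5%) were called in all 3 lines with 1 direction, 771 (32.1%) in 2 lines with 1 direction and 853 (35.5%) in 1 line; 275 (11.4%) were called higher in 1 line and lower in another, and 13 (0.541%) in no line. The most frequent patterns were lower in all 3 lines (294 genes), higher in 92-1 and MEL202 and not called in MP41 (246), higher in all (198), lower in MP41 alone (188), higher in 92-1 alone (186) and lower in 92-1 and MP41 (163). Among the 492 genes called the same way in all lines, the effect was largest in 92-1 for 311, in MEL202 for 67 and in MP41 for 114.

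**Figure D1:**
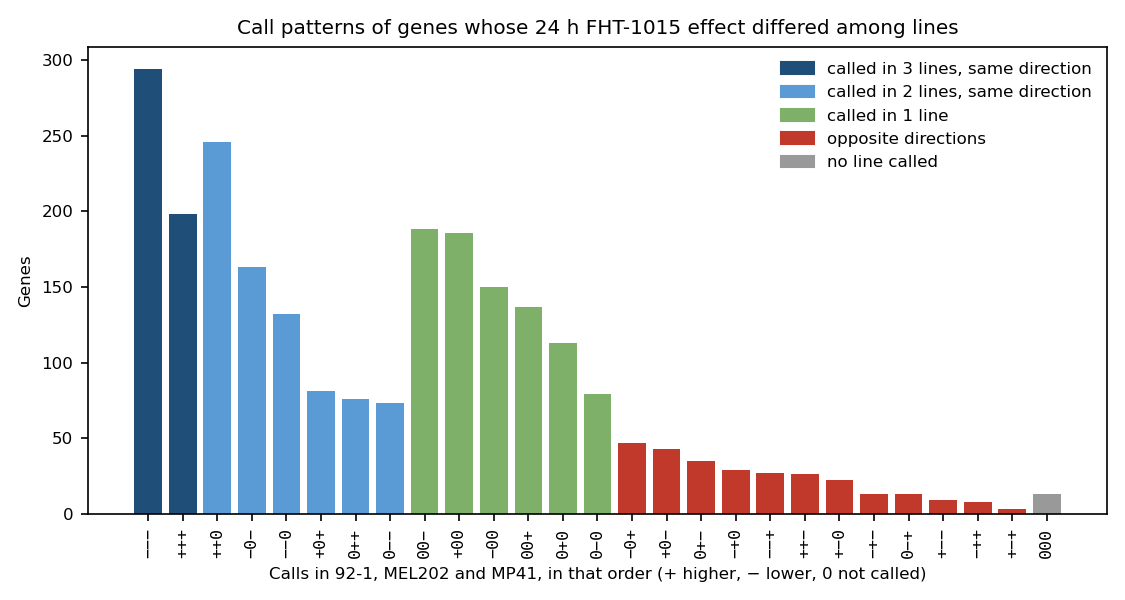
Number of genes (vertical axis) in each pattern of calls, for the 2404 genes whose 24 h effect differed among the lines; the 3 signs on the horizontal axis give the call in 92-1, MEL202 and MP41 (+ higher, − lower, 0 not called at adjusted p under 0.05) and the colours the kind of pattern. The tallest bars are lower in all lines (294) and higher in 92-1 and MEL202 (246), and every bar of opposite directions is below 50.

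Opposite responses were counted only where both effects and the difference between them were called. There were 273 such genes (1.52% of genes tested): 34 were higher in 92-1 and lower in MEL202, 78 higher in 92-1 and lower in MP41, 49 higher in MEL202 and lower in 92-1, 73 higher in MEL202 and lower in MP41, 82 higher in MP41 and lower in 92-1, and 43 higher in MP41 and lower in MEL202, some genes standing in 2 of these sets. Median GC content was 43.8% and 44.7% in the sets that were higher in MP41 and 51.1% and 50.5% in those lower in MP41, against 48.4% over all genes tested. The sets of 92-1 against MEL202 were at 51.1% and 50.6%. Without MP41 DMSO replicate 3 the count was 750, without replicates 2 and 3 it was 539, and 201 of the 273 (73.6%) remained in the latter fit, which has 1 MP41 DMSO library. With offsets for GC content and length the count was 510, and 224 (82.1%) of the 273 remained. In 117 of the 273 genes the opposite calls held in each of the 18 fits that left out 1 library.

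**Figure D2:**
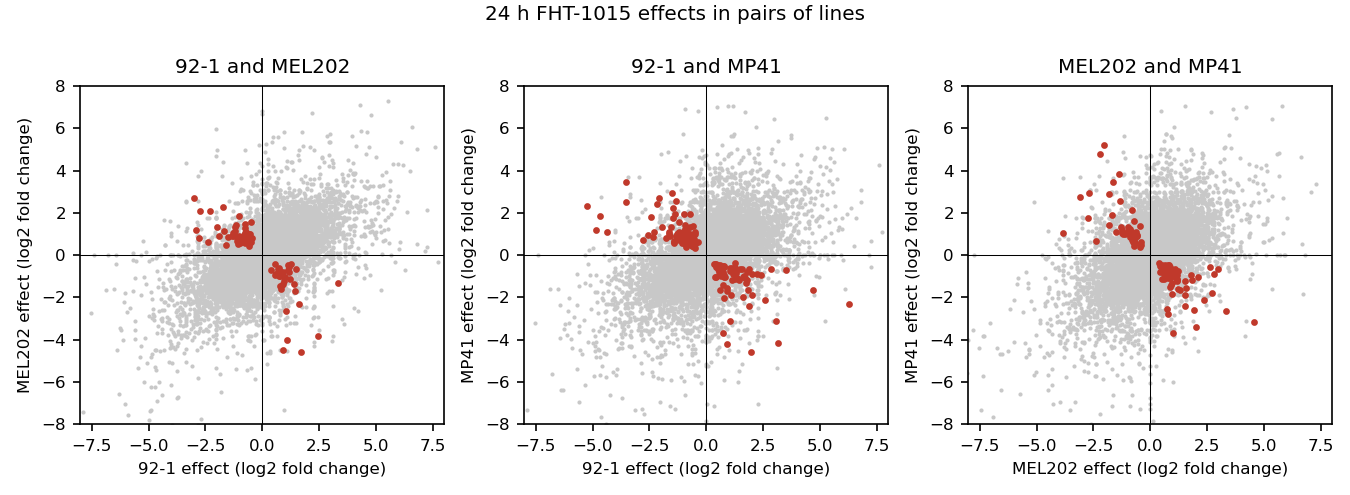
Effect of FHT-1015 at 24 h (log2 fold change against DMSO) in 1 line against another, 1 panel for each pair of lines and 1 point per gene; red points are the genes called in opposite directions in that pair. The red points lie in the upper left and lower right parts, mostly within 2 log2 units of 0 on each axis; 4 genes in 92-1, 3 in MEL202 and 4 in MP41 have effects beyond the plotted range of 8.

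The genes described next had the largest opposite effects, by the smaller of both effects, among protein-coding genes expressed in every line; all 14 of them stayed called in opposite directions in at least 1 pair of lines in each of the 18 fits with 1 library left out. BAMBI, named as the leading gene of its pathway list, is given with them. Treated and DMSO replicates that do not overlap are common in these data, at 59.9% of genes tested in 92-1, 48% in MEL202 and 38.5% in MP41, so separate ranges are given as a description and the test rests on the fit.

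BAMBI, ATOH8 and ATP2A3 fell in 92-1 and rose in MEL202. BAMBI (ENSG00000095739.11, chromosome 10, 28677342 to 28682939, plus strand) encodes a transmembrane pseudoreceptor that resembles type I receptors of the TGF-β family but lacks the kinase domain, and so dampens BMP and TGF-β signalling. In 92-1, the DMSO samples were at 66.6, 62.9 and 61.8 CPM and the FHT-1015 samples at 11.4, 8 and 7.99 CPM. The MEL202 libraries read 107, 90.6 and 110 CPM with DMSO and 182, 204 and 157 CPM with FHT-1015. For MP41, levels of 165, 218 and 152 CPM with DMSO compared with 274, 322 and 292 CPM after the inhibitor. Treated and DMSO samples were separate in every line. The log2 fold change was -2.80 ± 0.18 (SE) in 92-1, 0.82 ± 0.17 for MEL202 and 0.73 ± 0.16 for MP41, with adjusted p (edgeR) of 4.36e-10, 0.000732 and 0.00181 in that order, and the adjusted p for a difference among the lines was 1.01e-08. BAMBI fell in 92-1 and rose in both other lines. ATOH8 (ENSG00000168874.13, chromosome 2, 85751344 to 85788066, plus strand) encodes a basic helix-loop-helix transcription factor that BMP signalling induces in several cell types. The 92-1 libraries read 27.2, 26.9 and 25.3 CPM with DMSO and 3.65, 3.91 and 3.11 CPM with FHT-1015. For MEL202, levels of 89.7, 111 and 119 CPM with DMSO compared with 218, 250 and 252 CPM after the inhibitor. Treated MP41 samples were at 78.8, 97.8 and 88.8 CPM, against 187, 251 and 151 CPM with DMSO. The ranges of the 2 treatments were apart in every line. On the log2 scale the effects were -2.90 ± 0.20 (SE), 1.17 ± 0.17 and -1.15 ± 0.17 in 92-1, MEL202 and MP41 (edgeR, adjusted p = 7.8e-10, 2.2e-05 and 2.5e-05), and the test among the lines gave an adjusted p of 1.36e-08. This gene fell in 92-1 and MP41 and rose in MEL202, from a starting level that was lowest in 92-1.

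ATP2A3 (ENSG00000074370.18, chromosome 17, 3923870 to 3964464, minus strand) encodes SERCA3, a pump that returns calcium from the cytosol to the endoplasmic reticulum. For 92-1, levels of 30.8, 35.7 and 33 CPM with DMSO compared with 10.2, 9.5 and 10.6 CPM after the inhibitor. Treated MEL202 samples were at 10.2, 16 and 14.3 CPM, against 2.39, 2.7 and 3.15 CPM with DMSO. DMSO-treated MP41 cells gave 9.62, 16.6 and 8.1 CPM and inhibitor-treated cells 14.8, 15.3 and 15.1 CPM. Every treated sample lay outside the DMSO range in 92-1 and MEL202, while the ranges overlapped in MP41. Fitted log2 effects came to -1.72 ± 0.23 (SE) in 92-1, 2.29 ± 0.24 for MEL202 and 0.40 ± 0.22 for MP41; edgeR gave them adjusted p of 5.26e-06, 5.19e-07 and 0.17, and 4.1e-07 for the difference among lines. DMSO levels were highest in 92-1, where the gene fell, and lowest in MEL202, where it rose. The call was missed in MP41, where the effect without MP41 DMSO replicate 2 was 0.76 (adjusted p = 0.00391). PLEKHA7, a protein of the adherens junction, was the remaining gene of this kind, at -1.19, 1.31 and -0.01 on the log2 scale in 92-1, MEL202 and MP41 (edgeR, adjusted p = 0.002, 0.00301 and 0.994).

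TNFRSF12A (ENSG00000006327.13, chromosome 16, 3018445 to 3022383, plus strand) encodes the receptor for the cytokine TWEAK. Treated 92-1 samples were at 29.6, 29.2 and 24 CPM, against 9.39, 12.2 and 8.57 CPM with DMSO. DMSO-treated MEL202 cells gave 77.1, 50 and 61.6 CPM and inhibitor-treated cells 16, 21.7 and 21.1 CPM. In MP41, the DMSO samples were at 53.2, 43.4 and 39.3 CPM and the FHT-1015 samples at 14.3, 20.1 and 25.5 CPM. Samples of both treatments kept apart in every line. FHT-1015 minus DMSO gave 1.46 ± 0.22 (SE) for 92-1, -1.68 ± 0.22 for MEL202 and -1.18 ± 0.22 for MP41 in log2 units, with edgeR's adjusted p of 2.92e-05, 6.39e-06 and 0.000258, and of 1.85e-06 for a difference between any of them. TNFRSF12A started lowest in 92-1 and, after treatment, the means of the 3 lines lay between 19.6 and 27.6 CPM. The same pattern, higher in 92-1 and lower in MEL202 and MP41, was called for APOLD1, an endothelial early-response gene (1.05, -2.64 and -3.14; edgeR, adjusted p = 0.00117, 3.35e-08 and 3.16e-09), and for CSRNP1, a nuclear protein induced by AXIN1 (1.15, -0.71 and -1.19; adjusted p = 0.000556, 0.0146 and 0.000204). For CSRNP1 the call in MEL202 ended without MEL202 FHT-1015 replicate 1 (adjusted p = 0.0782). ARSJ, an arylsulfatase, was higher in 92-1 (1.41 ± 0.25, SE) and lower in MEL202 (-1.37 ± 0.26) and was at 0.01 in MP41 (adjusted p = 0.000142, 0.000393 and 1 in that order). APOLD1 overlaps DDX47 on the opposite strand and the counts do not separate strands. Reads that fell on both genes count as ambiguous and were credited to neither. Ambiguous reads made up 10.3% to 12.9% of gene and ambiguous reads per sample.

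SAT1 and SLC7A2 rose in MP41 and fell in 92-1. SAT1 (ENSG00000130066.16, chromosome X, 23783173 to 23786226, plus strand) encodes spermidine/spermine N1-acetyltransferase, which acetylates polyamines for export or breakdown. DMSO-treated MP41 cells gave 177, 128 and 208 CPM and inhibitor-treated cells 449, 553 and 753 CPM. In 92-1, the DMSO samples were at 112, 176 and 179 CPM and the FHT-1015 samples at 19.2, 29.7 and 38.3 CPM. The MEL202 libraries read 58.7, 34.5 and 51.8 CPM with DMSO and 34.4, 51.9 and 43.8 CPM with FHT-1015. A gap separated the treatments in 92-1 and MP41, while the ranges overlapped in MEL202. The edgeR effects (log2, ± SE) of -2.42 ± 0.28 in 92-1, -0.16 ± 0.27 for MEL202 and 1.78 ± 0.27 for MP41 had adjusted p of 1.04e-06, 0.701 and 3.87e-05; the test among lines gave an adjusted p of 1.85e-06. SAT1 rose in MP41, fell in 92-1 and was not called in MEL202. SLC7A2 (ENSG00000003989.17, chromosome 8, 17497088 to 17570573, plus strand) encodes a transporter of cationic amino acids such as arginine and lysine. In MP41, the DMSO samples were at 57.2, 36 and 48 CPM and the FHT-1015 samples at 153, 97.5 and 106 CPM. The 92-1 libraries read 220, 164 and 184 CPM with DMSO and 51.7, 49.5 and 46 CPM with FHT-1015. For MEL202, levels of 77.6, 146 and 106 CPM with DMSO compared with 51.5, 40 and 41.6 CPM after the inhibitor. Treated and DMSO samples were separate in every line. The log2 fold change was -1.95 ± 0.23 (SE) in 92-1, -1.31 ± 0.22 for MEL202 and 1.33 ± 0.22 for MP41, with adjusted p (edgeR) of 1.03e-06, 0.000136 and 9.97e-05 in that order, and the adjusted p for a difference among the lines was 1.54e-06. It rose in MP41 and fell in 92-1 and MEL202, so that MP41, lowest with DMSO, was highest after treatment.

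RTN4RL1 (ENSG00000185924.7, chromosome 17, 1934677 to 2025345, minus strand) encodes a member of the Nogo receptor family. The MEL202 libraries read 4.19, 3.9 and 5.28 CPM with DMSO and 1.38, 1.11 and 2.67 CPM with FHT-1015. For MP41, levels of 0.399, 0.592 and 0.256 CPM with DMSO compared with 3.63, 7.11 and 6.35 CPM after the inhibitor. Treated 92-1 samples were at 18.3, 15.3 and 20.6 CPM, against 15, 14.6 and 18.1 CPM with DMSO. The ranges of the 2 treatments were apart in MEL202 and MP41, while the ranges overlapped in 92-1. On the log2 scale the effects were 0.19 ± 0.27 (SE), -1.39 ± 0.31 and 3.81 ± 0.38 in 92-1, MEL202 and MP41 (edgeR, adjusted p = 0.63, 0.00164 and 1.84e-07), and the test among the lines gave an adjusted p of 1.79e-06. Its MP41 DMSO level was under 1 CPM in every sample, which makes the fold there less certain than its sign. PM20D2, of a family of peptidases, rose in MP41 (1.42 ± 0.18, SE) and fell in 92-1 (-0.94 ± 0.18) and MEL202 (-1.83 ± 0.20; edgeR, adjusted p = 4.07e-06, 0.000282 and 7.06e-07). PHACTR2, a regulator of protein phosphatase and actin, rose in MP41 (1.32 ± 0.28) and fell in 92-1 (-1.55 ± 0.32; adjusted p = 0.000977 and 0.000639), with 0.70 ± 0.28 in MEL202 (adjusted p = 0.0629) and 0.65 in MP41 with GC content and length offsets.

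HOXA3 and PLPP3 fell in MP41 and rose in MEL202. HOXA3 (ENSG00000105997.22, chromosome 7, 27106184 to 27152581, minus strand) encodes a homeobox transcription factor. For MP41, levels of 5.98, 8.4 and 6.22 CPM with DMSO compared with 2.01, 3.09 and 3 CPM after the inhibitor. Treated MEL202 samples were at 16.8, 14.6 and 17.1 CPM, against 9.78, 7.99 and 7.29 CPM with DMSO. DMSO-treated 92-1 cells gave 1.96, 2.57 and 2.27 CPM and inhibitor-treated cells 9.45, 6.41 and 6.65 CPM. Every treated sample lay outside the DMSO range in every line. Fitted log2 effects came to 1.73 ± 0.24 (SE) in 92-1, 0.95 ± 0.21 for MEL202 and -1.33 ± 0.23 for MP41; edgeR gave them adjusted p of 9.3e-06, 0.00189 and 0.000146, and 7.26e-06 for the difference among lines. HOXA3 rose in 92-1 and MEL202 and fell in MP41. Its annotated span overlaps HOXA4, HOXA5 and HOXA6, and reads shared with these genes were credited to none of them. PLPP3, a lipid phosphate phosphatase, rose in MEL202 (1.18 ± 0.23) and fell in MP41 (-1.25 ± 0.23; adjusted p = 0.000642 and 0.000309), with -0.11 ± 0.24 in 92-1 (adjusted p = 0.773).

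**Figure D3:**
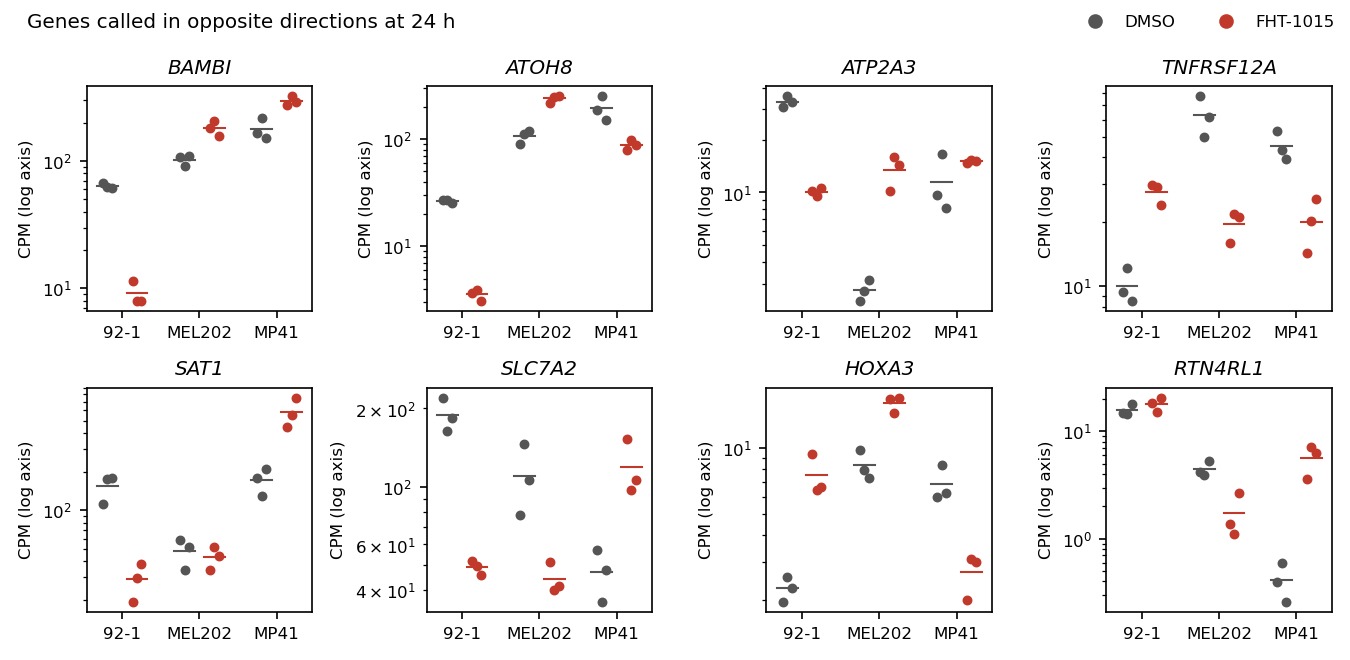
CPM in each of the 18 samples (log axis, 1 panel per gene) for 8 genes called in opposite directions; grey points are DMSO samples, red points FHT-1015 samples and bars the means of 3. BAMBI, ATOH8, ATP2A3, SAT1 and SLC7A2 fall in 92-1 and rise in another line, TNFRSF12A rises in 92-1 alone, HOXA3 falls in MP41 and rises in the other lines, and RTN4RL1 falls in MEL202 and rises in MP41.

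A response in 1 line was counted where the effect was called with a log2 fold change of at least 1 in that line, both differences from the other lines were called, and the effect in each other line was not called and under 0.5 in size. There were 90 such genes in 92-1 (0.503% of genes tested; 47 higher, 0.262%, and 43 lower, 0.24%), 18 in MEL202 (0.101%; 11 higher, 0.0614%, and 7 lower, 0.0391%) and 70 in MP41 (0.391%; 32 higher, 0.179%, and 38 lower, 0.212%). These counts follow the rule closely. Of the differing genes, 336, 192 and 325 were called in 92-1, MEL202 or MP41 alone, with no bound on size and no call of either difference required. Lifting only the bound on the other lines gave 119, 30 and 102, and a bound of 0.25 in place of 0.5 left 32, 4 and 31. The MP41 set depended on single libraries, with 547 genes without MP41 DMSO replicate 3 (465 of them higher), 49 without replicate 2 and 207 without both, and its lower members had a median GC content of 51.8% and its higher members 42.8%, against 47.0% and 46.1% in the 92-1 set and 48.7% and 46.8% in the MEL202 set. Classes held in all 18 fits with 1 library left out for 26 of the 90 genes in 92-1, 4 of the 18 in MEL202 and 19 of the 70 in MP41. With GC content and length offsets 51 of the 90, 8 of the 18 and 34 of the 70 kept their class, and with limma-voom and quality weights 43, 6 and 26 did. The fit without MEL202 DMSO replicates 1 and 2, with 1 MEL202 DMSO library left, gave 52, 9 and 39 genes.

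SPP1, C1S and GEM rose in 92-1 alone. SPP1 (ENSG00000118785.14, chromosome 4, 87975650 to 87983426, plus strand) encodes osteopontin, a secreted matrix protein. Treated 92-1 samples were at 8.94, 39.7 and 85.1 CPM, against 0.538, 1.07 and 0.504 CPM with DMSO. DMSO-treated MEL202 cells gave 19.9, 9.43 and 12.1 CPM and inhibitor-treated cells 17.1, 20.5 and 12.3 CPM. In MP41, the DMSO samples were at 314, 287 and 374 CPM and the FHT-1015 samples at 224, 290 and 309 CPM. Samples of both treatments kept apart in 92-1, while the ranges overlapped in MEL202 and MP41. FHT-1015 minus DMSO gave 6.0 ± 0.63 (SE) for 92-1, 0.27 ± 0.46 for MEL202 and -0.24 ± 0.44 for MP41 in log2 units, with edgeR's adjusted p of 2.49e-07, 0.706 and 0.706, and of 2.54e-05 for a difference between any of them. Within 92-1 the 3 treated samples ranged widely, from 8.94 to 85.1 CPM, all above DMSO. C1S (ENSG00000182326.15, chromosome 12, 6988259 to 7071032, plus strand) encodes a serine protease of the classical complement pathway. DMSO-treated 92-1 cells gave 1.52, 1 and 0.945 CPM and inhibitor-treated cells 11.3, 8.5 and 6.29 CPM. In MEL202, the DMSO samples were at 12.3, 11 and 12.4 CPM and the FHT-1015 samples at 12.3, 12.8 and 14.6 CPM. The MP41 libraries read 5.83, 5.09 and 6.1 CPM with DMSO and 7.15, 4.54 and 7.14 CPM with FHT-1015. A gap separated the treatments in 92-1, while the ranges overlapped in MEL202 and MP41. The edgeR effects (log2, ± SE) of 2.88 ± 0.27 in 92-1, 0.15 ± 0.22 for MEL202 and 0.14 ± 0.23 for MP41 had adjusted p of 5.78e-08, 0.655 and 0.679; the test among lines gave an adjusted p of 2.34e-05. In 92-1 it rose to a mean between the DMSO means of MP41 and MEL202; it overlaps EMG1 and LPCAT3 in the annotation. GEM, a small GTPase that inhibits voltage-gated calcium channels, was higher in 92-1 (4.44 ± 0.53 CPM with DMSO and 20.8 ± 8.44 with FHT-1015, mean ± SD, n = 3), with log2 effects of 2.23 ± 0.26 in 92-1, 0.08 ± 0.23 for MEL202 and 0.14 ± 0.25 for MP41 (edgeR, adjusted p = 1.11e-06, 0.835 and 0.694).

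CHAC1, GPAT3 and the gene for carboxypeptidase M fell in 92-1 alone. CHAC1 (ENSG00000128965.13, chromosome 15, 40952962 to 40956519, plus strand) encodes a glutathione-degrading enzyme induced in the ATF4 stress response. In 92-1, the DMSO samples were at 29.6, 39.6 and 36.7 CPM and the FHT-1015 samples at 3.36, 3.42 and 3.48 CPM. The MEL202 libraries read 26.1, 19.9 and 30.3 CPM with DMSO and 13, 19.7 and 21.8 CPM with FHT-1015. For MP41, levels of 23.9, 31.4 and 19.7 CPM with DMSO compared with 26.9, 34.3 and 35.7 CPM after the inhibitor. Treated and DMSO samples were separate in 92-1, while the ranges overlapped in MEL202 and MP41. The log2 fold change was -3.37 ± 0.25 (SE) in 92-1, -0.49 ± 0.21 for MEL202 and 0.37 ± 0.21 for MP41, with adjusted p (edgeR) of 2.19e-09, 0.0927 and 0.185 in that order, and the adjusted p for a difference among the lines was 4.65e-07. The MEL202 effect lies just inside the bound of 0.5, and the gene left the set in 4 of the 18 fits with 1 library left out, while the difference among lines was called in all of them. Without MP41 DMSO replicate 2 it was called higher in MP41 (0.57, adjusted p = 0.0496). GPAT3, an acyltransferase of glycerolipid synthesis, fell in 92-1 (-2.38 ± 0.28, SE; edgeR, adjusted p = 9.84e-07) with 0.24 ± 0.25 in MEL202 and 0.13 ± 0.22 in MP41 (adjusted p = 0.503 and 0.678). The gene for carboxypeptidase M, a membrane enzyme that removes basic residues from peptide ends, carries the symbol CPM. It fell in 92-1 by 3.07 on the log2 scale (edgeR, adjusted p = 1.43e-08), with 0.19 and 0.09 in MEL202 and MP41 (adjusted p = 0.641 and 0.786). The gene overlaps MDM2 on the opposite strand. Its 92-1 effect was -1.55 with counts summed over both strand columns, which can credit reads of MDM2 to it.

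MEL202 had the fewest responses of its own. SETBP1 (ENSG00000152217.18, chromosome 18, 44680173 to 45068510, plus strand) encodes a protein that binds the SET oncoprotein. The MEL202 libraries read 2.75, 4.08 and 3.91 CPM with DMSO and 10.7, 12 and 10.8 CPM with FHT-1015. For 92-1, levels of 29.6, 22 and 25 CPM with DMSO compared with 24.2, 23.2 and 23.9 CPM after the inhibitor. Treated MP41 samples were at 8.77, 6.51 and 6.63 CPM, against 8.22, 7.22 and 6.48 CPM with DMSO. The ranges of the 2 treatments were apart in MEL202, while the ranges overlapped in 92-1 and MP41. On the log2 scale the effects were -0.11 ± 0.18 (SE), 1.64 ± 0.20 and 0.00 ± 0.19 in 92-1, MEL202 and MP41 (edgeR, adjusted p = 0.692, 2.3e-06 and 1), and the test among the lines gave an adjusted p of 0.000167. SETBP1 rose in MEL202, the line with the lowest DMSO level. TNFRSF19 (ENSG00000127863.15, chromosome 13, 23570370 to 23676104, plus strand) encodes TROY, a member of the TNF receptor family. For MEL202, levels of 13.8, 17.1 and 16.9 CPM with DMSO compared with 6.5, 4.35 and 5.62 CPM after the inhibitor. Treated 92-1 samples were at 9.66, 10.8 and 10.3 CPM, against 12.3, 14 and 13.9 CPM with DMSO. DMSO-treated MP41 cells gave 170, 109 and 151 CPM and inhibitor-treated cells 129, 129 and 136 CPM. Every treated sample lay outside the DMSO range in 92-1 and MEL202, while the ranges overlapped in MP41. Fitted log2 effects came to -0.39 ± 0.18 (SE) in 92-1, -1.54 ± 0.18 for MEL202 and -0.12 ± 0.17 for MP41; edgeR gave them adjusted p of 0.0956, 1.97e-06 and 0.598, and 0.00105 for the difference among lines. At 4 h the same gene had log2 effects of 2.23 in 92-1 and 1.15 in MEL202, both called higher (edgeR, adjusted p = 3.93e-07 and 0.00148). Also higher in MEL202 alone were ARHGAP28, a GTPase-activating protein (0.47, 2.59 and 0.01 in 92-1, MEL202 and MP41; edgeR, adjusted p = 0.167, 2.68e-07 and 0.982), and TINCR (-0.47, 1.70 and -0.50; adjusted p = 0.13, 2.13e-06 and 0.0628), the latter called lower in MP41 without MP41 DMSO replicate 3 (-0.57, adjusted p = 0.0311). ASB9, a SOCS-box protein (0.25, -1.06 and 0.26; adjusted p = 0.3, 0.000138 and 0.297), and PPP2R5A, a regulatory subunit of protein phosphatase 2A (0.34, -1.04 and 0.00; adjusted p = 0.099, 3.25e-05 and 1), were lower there.

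CYP20A1, CTH and PANK1 rose in MP41 alone. CYP20A1 (ENSG00000119004.15, chromosome 2, 203238940 to 203305611, plus strand) encodes a cytochrome P450 with no settled substrate. Treated MP41 samples were at 216, 249 and 186 CPM, against 26, 18.9 and 19.4 CPM with DMSO. DMSO-treated 92-1 cells gave 11.3, 9.98 and 11 CPM and inhibitor-treated cells 11.1, 11.8 and 10.7 CPM. In MEL202, the DMSO samples were at 19.6, 14.8 and 15.4 CPM and the FHT-1015 samples at 19, 16.7 and 15.8 CPM. Samples of both treatments kept apart in MP41, while the ranges overlapped in 92-1 and MEL202. FHT-1015 minus DMSO gave 0.05 ± 0.17 (SE) for 92-1, 0.05 ± 0.16 for MEL202 and 3.34 ± 0.17 for MP41 in log2 units, with edgeR's adjusted p of 0.839, 0.87 and 9.36e-11, and of 1.24e-08 for a difference between any of them. The treated MP41 samples were above every other sample. CTH (ENSG00000116761.11, chromosome 1, 70411218 to 70439851, plus strand) encodes cystathionine gamma-lyase, which makes cysteine from cystathionine. DMSO-treated MP41 cells gave 7.87, 4.14 and 6.57 CPM and inhibitor-treated cells 63.1, 84.4 and 85.8 CPM. In 92-1, the DMSO samples were at 10.7, 9.73 and 9.58 CPM and the FHT-1015 samples at 11.4, 12.7 and 13.1 CPM. The MEL202 libraries read 8.7, 10.7 and 11.2 CPM with DMSO and 11.1, 11.9 and 13.3 CPM with FHT-1015. A gap separated the treatments in 92-1 and MP41, while the ranges overlapped in MEL202. The edgeR effects (log2, ± SE) of 0.31 ± 0.20 in 92-1, 0.24 ± 0.20 for MEL202 and 3.64 ± 0.21 for MP41 had adjusted p of 0.242, 0.387 and 2.59e-10; the test among lines gave an adjusted p of 1.18e-07. PANK1, a pantothenate kinase of coenzyme A synthesis, was also higher in MP41 (1.86 ± 0.25, SE; adjusted p = 9.77e-06), with -0.05 ± 0.24 in 92-1 and -0.49 ± 0.25 in MEL202 (adjusted p = 0.903 and 0.144).

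SCRN1 (ENSG00000136193.17, chromosome 7, 29920103 to 29990289, minus strand) encodes secernin 1, a cytosolic protein linked to exocytosis. In MP41, the DMSO samples were at 20.8, 18.5 and 16.5 CPM and the FHT-1015 samples at 1.29, 0.884 and 1.14 CPM. The 92-1 libraries read 281, 204 and 222 CPM with DMSO and 281, 237 and 262 CPM with FHT-1015. For MEL202, levels of 159, 275 and 227 CPM with DMSO compared with 257, 241 and 244 CPM after the inhibitor. Treated and DMSO samples were separate in MP41, while the ranges overlapped in 92-1 and MEL202. The log2 fold change was 0.14 ± 0.18 (SE) in 92-1, 0.17 ± 0.18 for MEL202 and -4.08 ± 0.23 for MP41, with adjusted p (edgeR) of 0.566, 0.519 and 1.87e-10 in that order, and the adjusted p for a difference among the lines was 1.01e-08. SCRN1 was lowest in MP41 with DMSO and fell further in that line. INPP5F, an inositol phosphatase, fell in MP41 (-2.39 ± 0.15, SE; edgeR, adjusted p = 8.4e-10) from 135 ± 25.3 to 25.9 ± 1.87 CPM (mean ± SD, n = 3), with -0.05 and -0.13 in 92-1 and MEL202 (adjusted p = 0.835 and 0.534). FBLIM1, a filamin-binding LIM protein, was lower in MP41 (-2.20 ± 0.34; adjusted p = 4.99e-05) and at 0.28 and 0.35 in the other lines (adjusted p = 0.4 and 0.295). Without MP41 DMSO replicate 3, the MP41 effects of SCRN1, INPP5F and CTH were -4.16, -2.22 and 3.69, and without replicate 2 they were -4.09, -2.46 and 3.43.

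**Figure D4:**
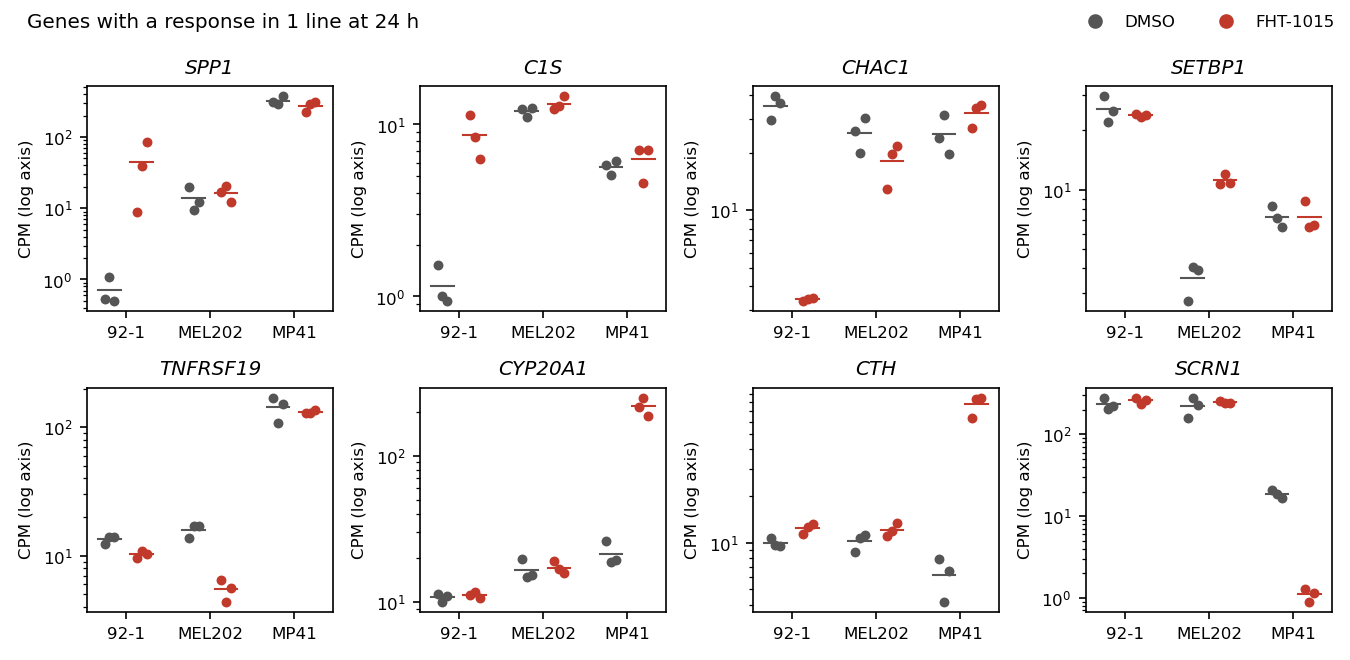
CPM in each of the 18 samples (log axis, 1 panel per gene) for 8 genes with a response in 1 line; grey points are DMSO samples, red points FHT-1015 samples and bars the means of 3. SPP1, C1S and CHAC1 move in 92-1, SETBP1 and TNFRSF19 in MEL202, and CYP20A1, CTH and SCRN1 in MP41, with log2 effects of at least 1.54 in size in those lines.

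The pathway lists below are given beside the background of 13.4% of genes with a differing effect. Median effects over all genes were 0.04 in 92-1, -0.01 in MEL202 and 0.00 in MP41. Every list lay above 13.4%, from 16.7% for mitosis genes to 61.5% for AP-1 factors. Of the 17905 background genes 13787 code for protein, and the lists were chosen with earlier results of these data known. A share above the background is therefore no result about a pathway, and no list was tested. Numbers in brackets after a list count its genes called higher and lower and give its median log2 effects, each in the order 92-1, MEL202 and MP41. Opposite-strand overlaps with another protein-coding gene are also annotated for FOSB (with ERCC1), FBN2 (with SLC27A6), PRKCZ (with FAAP20), ETV4 (with DHX8) and MAFF (with PLA2G6). Further cases are SMARCD3 (with CHPF2), PRKCH (with TMEM30B), IFIT3 (with LIPA), CCND1 (with LTO1), TP53I3 (with FAM228B) and TNFRSF12A (with CLDN6). Reads that fell on both genes of a pair are left out of these unstranded counts.

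Cholesterol synthesis, whose enzymes build sterols under control of the SREBP transcription factors, ran lower in 92-1 than in MP41 for several enzymes. Of 26 genes tested, 13 (50%) had differing effects; 14 were lower and 3 higher in 92-1, 3 lower and 2 higher in MEL202, and 5 lower and 7 higher in MP41, and the median effects were -0.64, 0.09 and 0.00. SQLE (ENSG00000104549.12, chromosome 8, 124998497 to 125022283, plus strand) encodes squalene epoxidase, the first oxygenation step towards sterols. The 92-1 libraries read 485, 459 and 449 CPM with DMSO and 163, 199 and 164 CPM with FHT-1015. For MEL202, levels of 571, 651 and 619 CPM with DMSO compared with 416, 371 and 360 CPM after the inhibitor. Treated MP41 samples were at 617, 599 and 595 CPM, against 448, 340 and 423 CPM with DMSO. The ranges of the 2 treatments were apart in every line. On the log2 scale the effects were -1.41 ± 0.14 (SE), -0.68 ± 0.14 and 0.58 ± 0.14 in 92-1, MEL202 and MP41 (edgeR, adjusted p = 1.03e-07, 0.000616 and 0.00236), and the test among the lines gave an adjusted p of 2.63e-06. SQLE fell in 92-1 and MEL202 and rose in MP41.

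IDI1, which isomerises isopentenyl diphosphate, and MSMO1, a C4-methyl sterol oxidase, were also called lower in 92-1 and higher in MP41: IDI1 at -1.11 ± 0.25 in 92-1, -0.44 ± 0.24 for MEL202 and 0.90 ± 0.25 for MP41 (edgeR, adjusted p = 0.00123, 0.191 and 0.00724) and MSMO1 at -1.20 ± 0.25 in 92-1, -0.30 ± 0.25 for MEL202 and 0.72 ± 0.26 for MP41 (adjusted p = 0.00077, 0.389 and 0.0361). For IDI1 the MP41 effect was 1.48 without MP41 DMSO replicate 3, and for MSMO1 it was 1.23 without replicate 3 and 0.43 without replicate 2; the MSMO1 call in MP41 ended without MP41 DMSO replicate 1 (adjusted p = 0.128), MP41 DMSO replicate 2 (adjusted p = 0.155), MP41 FHT-1015 replicate 1 (adjusted p = 0.0898) or MP41 FHT-1015 replicate 3 (adjusted p = 0.0984), and with GC content and length offsets (0.29, adjusted p = 0.103). HMGCS1, the HMG-CoA synthase, fell in 92-1 alone (-1.47 ± 0.26 in 92-1, 0.08 ± 0.25 for MEL202 and 0.25 ± 0.26 for MP41; adjusted p = 0.000123, 0.841 and 0.478). FDFT1, squalene synthase, fell in 92-1 (-1.74 ± 0.13, SE) and in MP41 (-0.62); its effects differed among lines (adjusted p = 3.23e-05). TM7SF2, a sterol C14-reductase, moved the other way and rose in all lines (3.36, 2.80 and 1.11). SREBF2, which encodes the main sterol-regulating SREBP, was not called in any line (0.19, 0.41 and -0.08; adjusted p = 0.434, 0.0848 and 0.756).

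**Figure D5:**
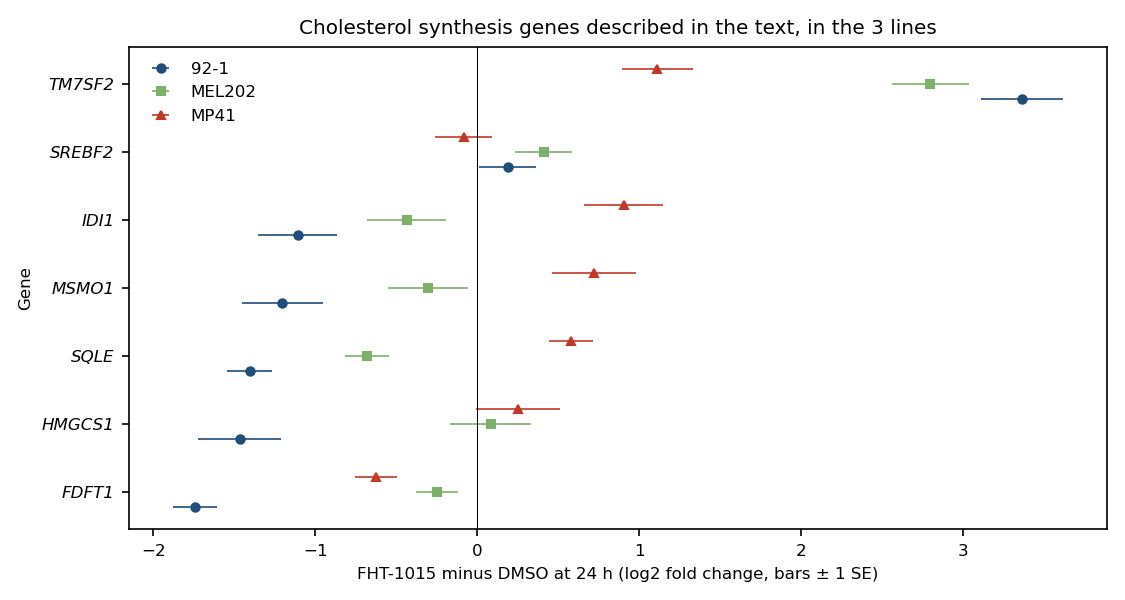
Effect of FHT-1015 at 24 h (log2 fold change, bars ± 1 SE) on the 7 cholesterol synthesis genes described in the text, of 26 tested, in 92-1 (circles), MEL202 (squares) and MP41 (triangles), ordered by the effect in 92-1. IDI1, MSMO1 and SQLE lie below 0 in 92-1 and above 0 in MP41, whereas TM7SF2 lies above 0 in all lines.

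Among BMP and TGF-β genes, whose ligands signal through receptor kinases to SMAD transcription factors, 16 of 30 (53.3%) had differing effects; 14 were higher and 6 lower in 92-1, 17 and 4 in MEL202, and 12 and 3 in MP41. Besides BAMBI and ATOH8, the type I receptor TGFBR1 was called in opposite directions, lower in 92-1 and higher in MP41 (-0.88 ± 0.25 in 92-1, -0.05 ± 0.24 for MEL202 and 1.19 ± 0.24 for MP41, SE; edgeR, adjusted p = 0.00746, 0.905 and 0.000769), with 0.91 and 1.68 in MP41 without MP41 DMSO replicate 2 or 3 and 0.79 with GC content and length offsets. TGFBR3, the co-receptor betaglycan, fell in 92-1 (-2.00 ± 0.28), with 0.08 in MEL202 and -0.42 in MP41 (adjusted p = 8.6e-06, 0.851 and 0.181). SMAD6, an inhibitory SMAD, rose in 92-1 (1.02 ± 0.16; adjusted p = 3.98e-05), with 0.26 and 0.14 in the other lines (adjusted p = 0.23 and 0.532). Its difference among lines was lost without 92-1 DMSO replicate 1 (adjusted p = 0.073), 92-1 FHT-1015 replicate 1 (adjusted p = 0.069) or 92-1 FHT-1015 replicate 2 (adjusted p = 0.0546).

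WNT pathway genes differed in 8 of 30 cases (26.7%). In 92-1, MEL202 and MP41, 10, 10 and 6 of them were called higher and 10, 5 and 8 lower, with median effects of -0.15, 0.55 and -0.22. FZD1 (ENSG00000157240.3, chromosome 7, 91264364 to 91271326, plus strand) encodes a Frizzled receptor for WNT ligands. For 92-1, levels of 9.83, 10.9 and 11.4 CPM with DMSO compared with 31.2, 24.6 and 24.1 CPM after the inhibitor. Treated MEL202 samples were at 104, 108 and 92 CPM, against 38.2, 43.2 and 48 CPM with DMSO. DMSO-treated MP41 cells gave 95.7, 143 and 95.3 CPM and inhibitor-treated cells 68.4, 68 and 64.2 CPM. Every treated sample lay outside the DMSO range in every line. Fitted log2 effects came to 1.31 ± 0.17 (SE) in 92-1, 1.23 ± 0.17 for MEL202 and -0.73 ± 0.16 for MP41; edgeR gave them adjusted p of 5.06e-06, 1.03e-05 and 0.00167, and 5.68e-06 for the difference among lines. FZD1 rose in 92-1 and MEL202 and fell in MP41. LEF1, a transcription factor of the pathway, had the same signs (1.71 ± 0.26 in 92-1, 0.77 ± 0.25 for MEL202 and -1.11 ± 0.27 for MP41; edgeR, adjusted p = 2.43e-05, 0.0234 and 0.00369). Its call in MEL202 was lost without MEL202 DMSO replicate 1 (adjusted p = 0.0775), MEL202 DMSO replicate 3 (adjusted p = 0.0567), MEL202 FHT-1015 replicate 2 (adjusted p = 0.127) or MEL202 FHT-1015 replicate 3 (adjusted p = 0.0873), and its call in MP41 in the fit without MP41 DMSO replicates 2 and 3 (1 library left in that group; -0.85, adjusted p = 0.086). DACT1, an antagonist of Dishevelled, rose in 92-1 (3.02 ± 0.27) and MEL202 (2.83 ± 0.20) and was at -0.28 ± 0.18 in MP41 (adjusted p = 2.4e-08, 4.15e-09 and 0.248), where its DMSO level was highest (82.1 ± 4.43 CPM, mean ± SD, n = 3, against 0.734 ± 0.262 in 92-1 and 7.63 ± 1.16 in MEL202).

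The MAPK pathway output genes, which report ERK activity, differed in 12 of 21 cases (57.1%) (higher 6, 5 and 4, lower 6, 7 and 9, medians 0.10, 0.12 and -0.37), and AP-1 factors in 8 of 13 (61.5%) (higher 6, 2 and 2, lower 4, 4 and 4, medians 0.22, -0.13 and -0.36). CCND1, cyclin D1, fell in all lines and most in MEL202 (-1.84 ± 0.16 in 92-1, -3.45 ± 0.17 for MEL202 and -2.35 ± 0.17 for MP41, SE; edgeR, adjusted p = 0.000164 for the difference). ETV4, an ETS factor induced by ERK, fell in MP41 alone (-0.12 ± 0.17 in 92-1, 0.12 ± 0.17 for MEL202 and -1.50 ± 0.18 for MP41; adjusted p = 0.626, 0.651 and 1.58e-06), from 141 ± 43.5 to 49.6 ± 4 CPM (mean ± SD, n = 3). IER3, an immediate early gene, rose in 92-1 alone (1.12 ± 0.23 in 92-1, -0.13 ± 0.19 for MEL202 and -0.37 ± 0.19 for MP41; adjusted p = 0.000613, 0.645 and 0.135), and was called lower in MP41 without MP41 DMSO replicate 3 (-0.46, adjusted p = 0.0453). SPRED2, an inhibitor of RAS-ERK signalling, was called higher in MEL202 and lower in MP41 with small effects (0.40 and -0.40; adjusted p = 0.0189 and 0.0175), which were lost in MEL202 without MEL202 DMSO replicate 1 (adjusted p = 0.0705), MEL202 FHT-1015 replicate 2 (adjusted p = 0.0563) or MEL202 FHT-1015 replicate 3 (adjusted p = 0.0609), and in MP41 without MP41 DMSO replicate 1 (adjusted p = 0.0567), MP41 FHT-1015 replicate 1 (adjusted p = 0.0593) or MP41 FHT-1015 replicate 3 (adjusted p = 0.0532). With GC content and length offsets the MP41 effect was -0.26. With no low-count filter the difference of SPRED2 among lines (adjusted p = 0.0793) and its MEL202 and MP41 calls (adjusted p = 0.218 and 0.191) were lost, and the fit of 36 samples at both times ended both calls (adjusted p = 0.0546 and 0.0558). Without MEL202 DMSO replicates 1 and 2 (1 library left in that group) the difference was lost as well (adjusted p = 0.0649).

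Of the AP-1 genes, MAFF, a small MAF protein, fell most in MP41 (-0.48 ± 0.17 in 92-1, -0.75 ± 0.18 for MEL202 and -2.40 ± 0.18 for MP41, SE; edgeR, adjusted p = 0.033, 0.0027 and 6.96e-09). Its call in 92-1 was lost without 92-1 DMSO replicate 2 (adjusted p = 0.0882), 92-1 DMSO replicate 3 (adjusted p = 0.124), 92-1 FHT-1015 replicate 1 (adjusted p = 0.0874), 92-1 FHT-1015 replicate 2 (adjusted p = 0.0868) or 92-1 FHT-1015 replicate 3 (adjusted p = 0.0663). It was also lost with library size alone, no low-count filter and 1 CPM required in every line (adjusted p = 0.0576, 0.0862 and 0.0503). FOSB rose in 92-1 (1.75 ± 0.33; adjusted p = 0.000246), with -0.18 in MEL202 and 0.28 in MP41 (adjusted p = 0.748 and 0.546), and its difference among lines was lost without 92-1 DMSO replicate 1 (adjusted p = 0.0673) or 92-1 FHT-1015 replicate 3 (adjusted p = 0.0583). JUN fell in MEL202 (-0.96 ± 0.22; adjusted p = 0.00224) and was called higher in 92-1 (0.58 ± 0.22; adjusted p = 0.0478), with 0.00 in MP41. The 92-1 call was lost in 14 of the 18 fits with 1 library left out (adjusted p = 0.051 to 0.269, the effect being 0.34 without 92-1 DMSO replicate 1), and kept without 92-1 DMSO replicate 2, MEL202 FHT-1015 replicate 1, or MP41 DMSO replicate 2 or 3. Library size alone and the fit of 36 samples at both times also ended it (adjusted p = 0.052 and 0.0595).

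Gq and protein kinase C genes, the signalling arm that uveal melanoma mutations switch on, differed in 10 of 23 cases (43.5%) (higher 4, 6 and 4, lower 9, 6 and 9, medians -0.23, 0.14 and -0.49). PRKCH, protein kinase C eta, rose in 92-1 and MEL202 and was not called in MP41 (1.61 ± 0.17 in 92-1, 1.30 ± 0.17 for MEL202 and -0.30 ± 0.16 for MP41, SE; edgeR, adjusted p = 2.57e-07, 8.26e-06 and 0.152), the line with the highest DMSO level (90.2 ± 1.14 CPM, mean ± SD, n = 3). PRKCZ, an atypical isoform, was called higher in MEL202 and lower in MP41 (0.50 ± 0.20 in 92-1, 0.75 ± 0.20 for MEL202 and -0.69 ± 0.20 for MP41; adjusted p = 0.0544, 0.00692 and 0.0118). Its MP41 effect was -0.45 without MP41 DMSO replicate 2 (adjusted p = 0.0781). It was -0.38 with GC content and length offsets (adjusted p = 0.0581). The MEL202 effect was 0.41 with counts summed over both strand columns (adjusted p = 0.0915). PLCB1, a phospholipase C that Gq activates, was called higher in MEL202 (0.78; adjusted p = 0.044) and lower in MP41, where it was under 1 CPM on average (-2.79; adjusted p = 0.00827); the MEL202 call was lost in 13 of the 18 fits with 1 library left out, the MP41 call without MP41 DMSO replicate 1 (adjusted p = 0.059), and the difference among lines without MP41 DMSO replicate 1 (adjusted p = 0.0871) or MP41 DMSO replicate 2 (adjusted p = 0.0523).

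Melanocyte and pigment genes differed in 12 of 23 cases (52.2%), although 19, 19 and 18 of the 23 were called lower in 92-1, MEL202 and MP41. MLPH (ENSG00000115648.14, chromosome 2, 237485428 to 237555318, plus strand) encodes melanophilin, which links melanosomes to the myosin motor. Treated 92-1 samples were at 37.6, 59.1 and 71 CPM, against 77.1, 87.7 and 80 CPM with DMSO. DMSO-treated MEL202 cells gave 148, 103 and 113 CPM and inhibitor-treated cells 7.39, 7.1 and 6.93 CPM. In MP41, the DMSO samples were at 194, 272 and 170 CPM and the FHT-1015 samples at 31.1, 26.2 and 28.2 CPM. Samples of both treatments kept apart in every line. FHT-1015 minus DMSO gave -0.55 ± 0.21 (SE) for 92-1, -4.08 ± 0.23 for MEL202 and -2.90 ± 0.22 for MP41 in log2 units, with edgeR's adjusted p of 0.0426, 2.28e-10 and 5.56e-09, and of 4.65e-07 for a difference between any of them. MLPH fell steeply in MEL202 and MP41 and little in 92-1, where the call was lost without 92-1 DMSO replicate 1 (adjusted p = 0.0626), 92-1 DMSO replicate 2 (adjusted p = 0.115), 92-1 DMSO replicate 3 (adjusted p = 0.0743), 92-1 FHT-1015 replicate 1 (adjusted p = 0.227) or 92-1 FHT-1015 replicate 2 (adjusted p = 0.0712); without 92-1 FHT-1015 replicate 1 the effect there was -0.33. The MLPH call in 92-1 was also lost with relative log expression scaling, library size alone, 1 CPM required in every line and DESeq2 (adjusted p = 0.0559, 0.0711, 0.0726 and 0.0507). TFAP2A, a transcription factor of neural crest and melanocytes, was the only member of this list called in opposite directions, lower in 92-1 and higher in MP41 (-0.59 ± 0.14 in 92-1, 0.22 ± 0.14 for MEL202 and 0.84 ± 0.14 for MP41; edgeR, adjusted p = 0.0017, 0.24 and 7.39e-05).

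Among 23 neural crest and mesenchymal transcription factors 8 (34.8%) differed (higher 6, 6 and 5, lower 7, 10 and 7, medians -0.10, -0.63 and -0.01). TFAP2C fell in 92-1 and MEL202 and was not called in MP41 (-2.80 ± 0.29 in 92-1, -2.69 ± 0.24 for MEL202 and 0.12 ± 0.28 for MP41, SE; edgeR, adjusted p = 1.94e-07, 8.07e-08 and 0.781), where it was at 1.78 ± 0.582 CPM with DMSO (mean ± SD, n = 3). FOXD3, a neural crest factor, had no read in any MP41 sample and was called higher in 92-1 (0.82 ± 0.27) and lower in MEL202 (-1.60 ± 0.27; adjusted p = 0.0278 and 0.000289), the 92-1 call being lost without 92-1 DMSO replicate 1 (adjusted p = 0.141), 92-1 FHT-1015 replicate 1 (adjusted p = 0.0726) or 92-1 FHT-1015 replicate 3 (adjusted p = 0.08), and with no low-count filter (adjusted p = 0.0539).

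DNA replication genes were lower almost throughout, in 34, 32 and 33 of 34 cases in 92-1, MEL202 and MP41, and the size differed for 16 (47.1%), with medians of -2.06, -1.40 and -1.59. RRM2, the small subunit of ribonucleotide reductase, fell by 2.55 in 92-1, by 1.19 in MEL202 and by 1.55 in MP41 on the log2 scale (edgeR, adjusted p = 0.000503 for the difference). Of 30 mitosis genes 5 (16.7%) differed (lower 19, 4 and 17, medians -0.88, -0.20 and -0.73), among them CCNB1, cyclin B1 (-1.11 ± 0.17 in 92-1, -0.13 ± 0.17 for MEL202 and -0.29 ± 0.17 for MP41; adjusted p = 2.56e-05, 0.588 and 0.184), whose difference was lost without 92-1 DMSO replicate 1 (adjusted p = 0.0559) or 92-1 FHT-1015 replicate 3 (adjusted p = 0.0604). Of 23 p53 target genes 8 (34.8%) differed (higher 4, 3 and 8, lower 8, 6 and 7, medians -0.25, -0.13 and 0.33). TP53I3, a p53-induced oxidoreductase, rose more in 92-1 and MEL202 than in MP41 (2.05 ± 0.19 in 92-1, 2.12 ± 0.19 for MEL202 and 0.54 ± 0.18 for MP41; adjusted p = 0.000226 for the difference), and its MP41 call was lost without MP41 DMSO replicate 1 (adjusted p = 0.0529), MP41 DMSO replicate 3 (0.42, adjusted p = 0.0616), MP41 FHT-1015 replicate 2 (adjusted p = 0.104) or MP41 FHT-1015 replicate 3 (adjusted p = 0.0636). With GC content and length offsets the MP41 effect of TP53I3 was 0.81. CCNG1, cyclin G1, rose in MP41 alone (0.00 ± 0.23 in 92-1, -0.13 ± 0.23 for MEL202 and 1.16 ± 0.23 for MP41; adjusted p = 1, 0.729 and 0.000646), and its difference among lines was lost without MP41 DMSO replicate 1 (adjusted p = 0.0659) and in the fit of 36 samples at both times (adjusted p = 0.0705). Its MP41 effect was 0.88 and 1.70 without MP41 DMSO replicate 2 or 3 and 0.74 with GC content and length offsets, under which it was no longer among the genes of 1 line. That class held in 8 of the 18 fits with 1 library left out.

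In the BCL2 family, which sets the threshold of apoptosis, 5 of 17 genes (29.4%) differed (higher 3, 1 and 4, lower 4, 5 and 8, medians -0.11, -0.25 and -0.48). HRK (ENSG00000135116.9, chromosome 12, 116856144 to 116881441, minus strand) encodes harakiri, a BH3-only activator of cell death. DMSO-treated MEL202 cells gave 23.2, 30.3 and 25.4 CPM and inhibitor-treated cells 0.936, 1.56 and 0.921 CPM. In 92-1, the DMSO samples were at 15.4, 13.2 and 13.9 CPM and the FHT-1015 samples at 1.79, 2.33 and 1.77 CPM. The MP41 libraries read 19.1, 24.3 and 18.8 CPM with DMSO and 4.53, 7.6 and 5.68 CPM with FHT-1015. A gap separated the treatments in every line. The edgeR effects (log2, ± SE) of -2.86 ± 0.25 in 92-1, -4.50 ± 0.26 for MEL202 and -1.80 ± 0.22 for MP41 had adjusted p of 2.02e-08, 2.28e-10 and 2.43e-06; the test among lines gave an adjusted p of 3.92e-05. HRK fell in all lines, most in MEL202 and least in MP41. BCL2L11, the BH3-only protein BIM, rose in 92-1 (1.83 ± 0.22, SE; edgeR, adjusted p = 1.61e-06) from 9.36 ± 1.04 to 33.3 ± 6.56 CPM (mean ± SD, n = 3), with 0.22 in MEL202 and 0.49 in MP41 (adjusted p = 0.49 and 0.0885), the MP41 effect being called without MP41 DMSO replicate 3 (0.65, adjusted p = 0.0293). BID was called higher in MP41, from a level of 1.38 ± 0.375 CPM, and lower in MEL202 (1.62 and -0.73; adjusted p = 5e-05 and 0.00995). The MEL202 call was lost without MEL202 DMSO replicate 1 (adjusted p = 0.0879).

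Calcium pumps, channels and stores differed in 6 of 21 cases (28.6%) (higher 5, 5 and 2, lower 6, 4 and 5, medians -0.17, 0.11 and -0.04). ATP2A2, the SERCA2 pump, fell in 92-1 (-1.07 ± 0.15, SE; edgeR, adjusted p = 9.6e-06), with -0.34 in MEL202 and -0.23 in MP41 (adjusted p = 0.0871 and 0.236), so that both SERCA genes named here fell in 92-1; the ATP2A2 difference was lost without 92-1 DMSO replicate 1 (adjusted p = 0.0589) or 92-1 FHT-1015 replicate 1 (adjusted p = 0.0565).

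Lysosome and proton pump genes differed in 10 of 37 cases (27%) (higher 5, 2 and 3, lower 17, 12 and 15, medians -0.47, -0.41 and -0.39). CTSL (ENSG00000135047.15, chromosome 9, 87725519 to 87731393, plus strand) encodes cathepsin L, a cysteine protease of the lysosome. In 92-1, the DMSO samples were at 283, 267 and 287 CPM and the FHT-1015 samples at 50.3, 54.7 and 58.2 CPM. Libraries of MEL202 read 130, 93.6 and 129 CPM with DMSO and 61.2, 64.2 and 65.8 CPM with FHT-1015. For MP41, levels of 309, 290 and 290 CPM with DMSO compared with 357, 551 and 678 CPM after the inhibitor. Treated and DMSO samples were separate in every line. The log2 fold change was -2.36 ± 0.19 (SE) in 92-1, -0.88 ± 0.18 for MEL202 and 0.84 ± 0.18 for MP41, with adjusted p (edgeR) of 7.14e-09, 0.000823 and 0.00119 in that order, and the adjusted p for a difference among the lines was 3.46e-07. CTSL fell in 92-1 and MEL202 and rose in MP41. In the hypoxia and glycolysis list 9 of 25 (36%) differed (higher 4, 5 and 5, lower 13, 8 and 10, medians -0.56, -0.35 and -0.31). LDHA, lactate dehydrogenase A, fell in 92-1 and rose in MP41 (-1.43 ± 0.17 in 92-1, -0.23 ± 0.17 for MEL202 and 0.62 ± 0.17 for MP41; edgeR, adjusted p = 1.18e-06, 0.311 and 0.0067), and the MP41 call was lost in the fit without MP41 DMSO replicates 2 and 3 (1 library left in that group; 0.39, adjusted p = 0.102). With limma-voom and quality weights the MP41 effect of LDHA was 0.37. ENO1, enolase 1, fell in 92-1 alone (-1.02 ± 0.17 in 92-1, 0.17 ± 0.16 for MEL202 and -0.16 ± 0.16 for MP41; adjusted p = 5.44e-05, 0.459 and 0.489). Of 27 ATF4 stress response genes 10 (37%) differed (higher 2, 2 and 4, lower 17, 16 and 9, medians -0.75, -0.76 and -0.15), CHAC1 and CTH being the members with a response in 1 line.

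Collagens and matrix glycoproteins differed in 10 of 32 cases (31.2%) (higher 10, 6 and 2, lower 9, 9 and 10, medians 0.04, -0.29 and -0.19), and integrins and laminins in 9 of 25 (36%) (higher 7, 7 and 4, lower 5, 2 and 6, medians 0.20, 0.29 and -0.07). ITGA9 (ENSG00000144668.12, chromosome 3, 37452115 to 37823514, plus strand) encodes integrin alpha 9, a receptor subunit for tenascin and osteopontin. The 92-1 libraries read 25.6, 17.7 and 20.3 CPM with DMSO and 1.57, 2.25 and 1.34 CPM with FHT-1015. For MEL202, levels of 1.72, 4.08 and 4.04 CPM with DMSO compared with 3.15, 3 and 3.39 CPM after the inhibitor. Treated MP41 samples were at 16.6, 18.7 and 19.7 CPM, against 10.2, 15.6 and 11 CPM with DMSO. The ranges of the 2 treatments were apart in 92-1 and MP41, while the ranges overlapped in MEL202. On the log2 scale the effects were -3.64 ± 0.31 (SE), -0.04 ± 0.28 and 0.58 ± 0.25 in 92-1, MEL202 and MP41 (edgeR, adjusted p = 1.33e-08, 0.941 and 0.082), and the test among the lines gave an adjusted p of 1.06e-06. ITGA9 fell in 92-1 and was not called in the other lines, except in MP41 without MP41 DMSO replicate 2 (0.78, adjusted p = 0.0272). COL1A1, the alpha 1 chain of type I collagen, rose in 92-1 and MEL202 (1.94 ± 0.29 in 92-1, 1.35 ± 0.33 for MEL202 and -0.18 ± 0.26 for MP41; edgeR, adjusted p = 2.06e-05, 0.00328 and 0.627). In a fit of all 36 samples at both times its difference among lines and its MEL202 call were lost (adjusted p = 0.0602 and 0.0589). LAMA3, a laminin chain, fell in 92-1 alone (-2.33 ± 0.36 in 92-1, 0.37 ± 0.36 for MEL202 and -0.29 ± 0.31 for MP41; adjusted p = 3.04e-05, 0.477 and 0.509). FBN2, fibrillin 2, was called higher in 92-1 and lower in MEL202 and MP41 (0.74, -0.69 and -1.41; adjusted p = 0.019, 0.0373 and 0.00588), but the 92-1 call was lost without 92-1 DMSO replicate 2 (adjusted p = 0.0813), 92-1 DMSO replicate 3 (adjusted p = 0.0759) or 92-1 FHT-1015 replicate 1 (adjusted p = 0.0628), and the MEL202 call without MEL202 DMSO replicate 2 (adjusted p = 0.296), MEL202 FHT-1015 replicate 1 (adjusted p = 0.0781) or MEL202 FHT-1015 replicate 2 (adjusted p = 0.182); without MEL202 DMSO replicate 2 that effect was -0.33. The MP41 call of FBN2 ended with limma-voom and quality weights (-1.05, adjusted p = 0.0966) and without MP41 DMSO replicates 2 and 3 (1 library left in that group; -0.95, adjusted p = 0.263). The fit of 36 samples at both times ended its 92-1 and MEL202 calls (adjusted p = 0.0844 and 0.135). COL4A4 was called higher in 92-1 and MEL202 and lower in MP41 from group means of at most 1.75 CPM (2.60, 2.38 and -2.13), and its MP41 call was lost in 8 of the 18 fits with 1 library left out (adjusted p = 0.0501 to 0.13), among them the one without MP41 DMSO replicate 2 (-1.85). Its 92-1 effect was 4.24 without 92-1 DMSO replicate 1 and its MP41 effect -3.55 without MP41 FHT-1015 replicate 2. With no low-count filter and in the fit of 36 samples at both times the MP41 call of COL4A4 was lost (adjusted p = 0.0739 and 0.0596).

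Semaphorins, plexins, neuropilins, Eph receptors and ephrins, the guidance cues of axons and migrating crest cells, differed in 13 of 45 cases (28.9%) (higher 16, 17 and 11, lower 12, 9 and 12, medians 0.32, 0.21 and -0.18). SEMA3A (ENSG00000075213.11, chromosome 7, 83955777 to 84492724, minus strand) encodes a secreted semaphorin. For 92-1, levels of 3.42, 2.51 and 2.27 CPM with DMSO compared with 81, 75.2 and 70.1 CPM after the inhibitor. Treated MEL202 samples were at 32.2, 29.9 and 32.6 CPM, against 8.1, 14.5 and 13.4 CPM with DMSO. DMSO-treated MP41 cells gave 76.8, 47.4 and 99.1 CPM and inhibitor-treated cells 124, 107 and 108 CPM. Every treated sample lay outside the DMSO range in every line. Fitted log2 effects came to 4.77 ± 0.27 (SE) in 92-1, 1.40 ± 0.23 for MEL202 and 0.61 ± 0.22 for MP41; edgeR gave them adjusted p of 8.3e-11, 0.000103 and 0.0405, and 2.6e-07 for the difference among lines. SEMA3A rose steeply in 92-1 from the lowest DMSO level of the lines and less in MEL202. Its MP41 call was lost in 12 of the 18 fits with 1 library left out (0.36 without MP41 DMSO replicate 2), and with GC content and length offsets the value there was -0.08 (adjusted p = 0.647). The fit of 36 samples at both times ended it as well (adjusted p = 0.068). SEMA6A, a transmembrane semaphorin, fell in MP41 alone (0.23 ± 0.16 in 92-1, -0.26 ± 0.17 for MEL202 and -1.20 ± 0.17 for MP41; edgeR, adjusted p = 0.301, 0.252 and 1.35e-05). Receptor tyrosine kinases differed in 10 of 29 cases (34.5%) (higher 4, 6 and 6, lower 9, 5 and 8, medians -0.40, 0.03 and -0.12), with DDR1, a collagen receptor, lower in MP41 (0.41 ± 0.17 in 92-1, -0.31 ± 0.17 for MEL202 and -1.09 ± 0.17 for MP41; adjusted p = 0.0727, 0.184 and 5.95e-05; -0.69 in MP41 with GC content and length offsets). YAP and TEAD factors and targets differed in 5 of 20 (25%) (higher 6, 7 and 8, lower 3, 3 and 2, medians 0.20, 0.20 and 0.15), with CTGF, a secreted YAP target, higher in 92-1 and MP41 and not called in MEL202 (1.23 ± 0.36 in 92-1, -0.68 ± 0.28 for MEL202 and 1.18 ± 0.29 for MP41; adjusted p = 0.011, 0.0785 and 0.00328). The CTGF call in 92-1 was lost without 92-1 DMSO replicate 2 (adjusted p = 0.066) or 92-1 FHT-1015 replicate 1 (adjusted p = 0.0557), and that in MP41 without MP41 DMSO replicates 2 and 3 together (1 library left in that group; 0.72, adjusted p = 0.118). The MP41 effect of CTGF was 0.72 with limma-voom and quality weights. Interferon response and HLA class I genes differed in 6 of 30 (20%) (higher 6, 6 and 6, lower 5, 5 and 7, medians -0.01, 0.22 and 0.20), led by IFIT3, an interferon-induced protein, which fell in 92-1 and MP41 (-1.47 ± 0.18 in 92-1, 0.42 ± 0.16 for MEL202 and -1.22 ± 0.17 for MP41; adjusted p = 1.76e-06, 0.0554 and 1.39e-05).

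The drug's own targets and the lineage factors were compared in the same way. With all samples SMARCA4 was not called in any line (0.27 ± 0.21 in 92-1, 0.25 ± 0.21 for MEL202 and -0.35 ± 0.21 for MP41, SE; edgeR, adjusted p = 0.325, 0.386 and 0.193), and its difference among lines missed the threshold (adjusted p = 0.221). Without MP41 DMSO replicate 3 both its MP41 effect (-0.57, adjusted p = 0.0147) and its difference (adjusted p = 0.0173) were called, and limma-voom with quality weights called the difference (adjusted p = 0.000213). SMARCA2 rose in 92-1 (0.75 ± 0.16; adjusted p = 0.000805), with -0.12 and -0.05 in MEL202 and MP41 (adjusted p = 0.615 and 0.844); the difference (adjusted p = 0.0175) was lost without 92-1 DMSO replicate 2 (adjusted p = 0.0683), 92-1 DMSO replicate 3 (adjusted p = 0.0599), 92-1 FHT-1015 replicate 1 (adjusted p = 0.0537) or 92-1 FHT-1015 replicate 3 (adjusted p = 0.056). Of 27 BAF complex subunits 6 (22.2%) differed (higher 8, 7 and 4, lower 7, 2 and 7, medians 0.18, 0.17 and -0.12), with SMARCD3 higher in 92-1 and MEL202 (0.97 ± 0.14 in 92-1, 0.59 ± 0.14 for MEL202 and -0.01 ± 0.14 for MP41; adjusted p = 1.78e-05, 0.00299 and 0.963). SOX10 (ENSG00000100146.17, chromosome 22, 37970686 to 37987422, minus strand) encodes a transcription factor of the neural crest and the melanocyte lineage. Treated 92-1 samples were at 24, 25.4 and 19.7 CPM, against 552, 595 and 603 CPM with DMSO. DMSO-treated MEL202 cells gave 648, 618 and 629 CPM and inhibitor-treated cells 14, 13.6 and 15.6 CPM. In MP41, the DMSO samples were at 1050, 1630 and 895 CPM and the FHT-1015 samples at 36.8, 43.1 and 46.1 CPM. Samples of both treatments kept apart in every line. FHT-1015 minus DMSO gave -4.66 ± 0.21 (SE) for 92-1, -5.46 ± 0.21 for MEL202 and -4.83 ± 0.21 for MP41 in log2 units, with edgeR's adjusted p of 5.37e-12, 2.1e-12 and 9.4e-12, and of 0.0787 for a difference between any of them. SOX10 fell by more than 4 log2 units in every line, and the difference among lines missed the threshold as fitted here. It passed without MP41 DMSO replicate 2 (adjusted p = 0.00241) or 3 (adjusted p = 0.0245), and with all samples under GC content and length offsets (adjusted p = 0.000195), limma-voom with quality weights (adjusted p = 8.73e-05) and no low-count filter (adjusted p = 0.0483). SOX10 overlaps POLR2F, and the counts do not separate strands. MITF, the melanocyte master regulator, fell in all lines (-1.63 ± 0.19 in 92-1, -1.93 ± 0.19 for MEL202 and -2.64 ± 0.19 for MP41; adjusted p = 7.45e-07, 1.84e-07 and 3.68e-09), by more in MP41 than in 92-1 (adjusted p = 0.0157), while the difference between MEL202 and MP41 missed the threshold (adjusted p = 0.107). Its difference among lines (adjusted p = 0.0277) was lost in 8 of the 18 fits with 1 library left out (adjusted p = 0.0503 to 0.0821), those without 92-1 DMSO replicate 2, 92-1 DMSO replicate 3, 92-1 FHT-1015 replicate 1, 92-1 FHT-1015 replicate 3, MEL202 FHT-1015 replicate 1, MP41 FHT-1015 replicate 1, MP41 FHT-1015 replicate 2 and MP41 FHT-1015 replicate 3.

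The 4 h samples, which share no library with those at 24 h, gave a second reading of the same genes. At 4 h the effect differed among lines for 118 of 16863 genes tested (0.7%), and effects were called for 1345 genes in 92-1 (7.98%), 344 in MEL202 (2.04%) and 26 in MP41 (0.154%). The 49 genes that rose in MEL202 and fell in 92-1 at 24 h were the set with the most early calls: 39 had a value below 0 in 92-1 at 4 h and 19 were called lower, with a median of -0.70, whereas in MEL202 at 4 h the median was -0.03. Over all genes tested at both times, 8198 of 16613 had a value below 0 in 92-1 at 4 h, 957 were called lower and the median was 0.00. The 49 genes had been picked as lower in 92-1 at 24 h. Among genes higher in MP41 and lower in 92-1, 57 of 81 were below 0 in 92-1 at 4 h and 14 called lower. Among genes lower in 92-1 only, 33 of 43 were below 0 and 7 called lower. ATOH8 in 92-1 was already at -3.67 at 4 h (edgeR, adjusted p = 6.93e-08) and ATP2A3 at -1.09 (adjusted p = 0.00111), while in MEL202 they were at -0.29 and -0.63 (adjusted p = 0.63 and 0.177). SAT1 and SLC7A2 had likewise fallen in 92-1 (-1.68 and -1.57; adjusted p = 0.000421 and 0.000418), with 0.47 and -1.16 in MP41 (adjusted p = 1 and 0.094). At 4 h the difference among lines was called for ATOH8 and SAT1 (adjusted p = 0.00021 and 0.0208) and missed the threshold for ATP2A3 and SLC7A2 (adjusted p = 0.127 and 0.654).

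The effect of BAMBI was not called within any line at 4 h, but differed among the lines (adjusted p = 0.0245). BAMBI was at -0.19, -0.72 and 0.87 in 92-1, MEL202 and MP41 at 4 h (edgeR, adjusted p = 0.727, 0.0826 and 0.139). CYP20A1 was at 0.08, -0.28 and 0.21 (adjusted p = 0.908, 0.602 and 1, and 0.906 for the difference) and SPP1 at -0.72 in 92-1 (adjusted p = 0.694, and 0.983 for the difference). GEM moved the other way at the earlier time: it had fallen in 92-1 and MEL202 at 4 h (-3.02 and -1.70; adjusted p = 2.73e-05 and 0.00328) and was higher in 92-1 at 24 h. TNFRSF12A had risen in 92-1 at 4 h (1.35; adjusted p = 0.00395), with -0.58 in MEL202 and -0.11 in MP41 (adjusted p = 0.368 and 1, and 0.0457 for the difference). RTN4RL1 was lower in 92-1 at 4 h (-2.64; adjusted p = 0.000136) and at 0.19 there at 24 h. In MP41, of the 70 genes with a response in that line alone at 24 h, 69 were tested at 4 h and 1 was called. A call at 24 h without one at 4 h is not a test of the 2 times, which were fitted separately.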

How the data were processed

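Libraries were made from poly-A RNA with a NEBNext Ultra kit, per the labels' protocols. The authors deposited 1 table of raw read counts per gene and sample with 3 count columns, laid out as STAR's gene counts; a STAR run is not stated in the labels, and the aligner settings are not given in the sources used here. The unstranded count column was used, since each strand held 49.7% to 50.1% of stranded counts; summary lines and unassigned reads stayed out of library sizes and tests. The submitters' processing notes name the build hg38 and limma. Of 58870 genes, 58552 matched GENCODE release 29 (GRCh38) by identifier, from which symbols, coordinates, GC content and length were taken.

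All 18 samples at 24 h were fitted in R 4.3.3 with edgeR 4.0.16 (TMM scaling, low-count filter by group, quasi-likelihood F-tests), 1 coefficient for each of 6 groups; the difference among lines was tested on 2 degrees of freedom and adjusted by Benjamini-Hochberg over 17905 genes. CPM are scaled by TMM. The SE of an effect was derived from its test, as the absolute log2 fold change over the square root of the F statistic. The 4 h samples were fitted alike. In simulated data with the same dispersion in all lines, 5 unchanged genes of 17371 were called. Genes were named by rule: protein-coding, at least 5 CPM on average, at least 1 CPM in each line and 10 reads in each group; for each direction, the 3 with the largest smaller effect (opposite) or smaller difference from the other lines (1 line); 4 targets and lineage factors; and in each pathway list the most significant gene of the F-test, plus list members, at any level, that responded in 1 line or in opposite directions. Results for a few genes are not reported here. Members, lists and tests were chosen with earlier results of these data known. Alternatives used limma 3.58.1 and DESeq2 1.42.0. No sequence is shown, since the comparison concerns levels of whole genes.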

Additional observations from a re-analysis of the deposited data

Results flagged for a closer look

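For 81 of the 83 named genes the effect of FHT-1015 differed among the lines by the test of the difference itself (edgeR, adjusted p under 0.05). SMARCA4 and SOX10 were the exceptions. The naming rule required this call of every gene but SMARCA4, SMARCA2, SOX10 and MITF, so the count follows from the rule. The value given for each gene is the largest minus the smallest log2 effect over the 3 lines.

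Genes called in opposite directions spanned most in RTN4RL1 (5.20), COL4A4 (4.73), APOLD1 (4.20), SAT1 (4.19), ATOH8 (4.07), ATP2A3 (4.01) and BAMBI (3.62). They were followed by PLCB1 (3.57), SLC7A2 (3.29), PM20D2 (3.25), CTSL (3.19), TNFRSF12A (3.14), HOXA3 (3.06) and PHACTR2 (2.86). Low counts in MP41 make the spans of RTN4RL1, COL4A4 and PLCB1 less certain. Next in this set were LEF1 (2.82), ARSJ (2.78), PLEKHA7 (2.50), PLPP3 (2.42), FOXD3 (2.42), BID (2.34) and CSRNP1 (2.34). Smaller spans were found for FBN2 (2.15), TGFBR1 (2.07), LDHA (2.05), FZD1 (2.05), IDI1 (2.01), SQLE (1.99) and MSMO1 (1.92). The narrowest were those of JUN (1.54), PRKCZ (1.44), TFAP2A (1.43) and SPRED2 (0.79).

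With a response in 1 line, the widest spans were those of SPP1 (6.24), SCRN1 (4.25), CHAC1 (3.74), CTH (3.40), CYP20A1 (3.29), CPM (3.26) and C1S (2.74). After these stood LAMA3 (2.69), GPAT3 (2.62), ARHGAP28 (2.58), FBLIM1 (2.56), PANK1 (2.35), INPP5F (2.34) and TINCR (2.20). Lower spans belonged to GEM (2.15), TGFBR3 (2.08), FOSB (1.93), SETBP1 (1.75), HMGCS1 (1.72), ETV4 (1.62) and BCL2L11 (1.61). The remainder of this set comprised IER3 (1.48), SEMA6A (1.42), TNFRSF19 (1.41), PPP2R5A (1.38), ASB9 (1.32), CCNG1 (1.29) and ENO1 (1.20). At the low end were CCNB1 (0.98), SMAD6 (0.89) and ATP2A2 (0.84). In this set, the response in 1 line held in 2 of the 18 fits with 1 library left out for FOSB, in 4 for SMAD6, in 5 for ATP2A2 and in 8 for CCNG1, and in 4 of the 12 other alternatives for BCL2L11 and 5 each for SMAD6 and ATP2A2.

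Outside both sets, spans were largest in ITGA9 (4.22), SEMA3A (4.17), MLPH (3.54), DACT1 (3.31), TFAP2C (2.92), HRK (2.70) and COL1A1 (2.12). Intermediate values belonged to PRKCH (1.92), MAFF (1.91), CTGF (1.91), IFIT3 (1.90), CCND1 (1.61), TP53I3 (1.58) and DDR1 (1.50). The others were RRM2 (1.36), MITF (1.00), SMARCD3 (0.99) and SMARCA2 (0.86).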

How the results depend on the processing

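The counts of the difference among lines, of 92-1 against MEL202, of 92-1 against MP41 and of MEL202 against MP41 are written here in that order as differing genes (2404, 1029, 1716 and 1154). They were 9347, 4327, 6948 and 6292 with limma-voom and quality weights, 4405, 2298, 3067 and 2258 after offsets for GC and length, and 3993, 1930, 2864 and 2246 without MP41 DMSO replicates 2 and 3, a fit chosen after seeing the data. Without MEL202 DMSO replicates 1 and 2, likewise chosen afterwards and, as for MP41, leaving 1 library in the group, assumed to vary like the others, the first pair gave 517 and the third 403, 3106 genes changed in MEL202, and responses in 1 line numbered 52, 9 and 39 in 92-1, MEL202 and MP41. DESeq2 gave 1827 for MEL202 against MP41. Limma-voom called 10529, 9495 and 9951 genes changed in the 3 lines. Responses in MEL202 alone (18) were 30 with DESeq2, 58 with limma-voom, 31 with the offsets, 30 without MP41 DMSO replicates 2 and 3 and 30 with no bound on the other lines; those in MP41 alone (70) were 128 with no low-count filter, 276 with limma-voom and 207 without the 2 MP41 samples; a bound of 0.25 left 32, 4 and 31. Opposite calls (273) were 1505, 510 and 539 under limma-voom, the offsets and without the 2 MP41 samples. The causes were not tested.

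Leaving out 1 library at a time gave 1694 to 5729 differing genes, 688 to 1603, 1127 to 4709 and 720 to 4309 for the pairs, 5383 to 7714, 4383 to 6643 and 5050 to 7969 changed genes in 92-1, MEL202 and MP41, 56 to 100, 13 to 32 and 49 to 547 responses in 1 line, and 210 to 750 opposite calls; the highest of each came without MP41 DMSO replicate 2 or 3. The replicate block gave 1946 differing genes, 842, 1518 and 919 by pairs, 69, 20 and 66 responses in 1 line and 250 opposite calls; the labels state no pairing, and deviations of same-numbered samples correlated over 0.1 in 5 of 9 pairs (-0.52 to 0.29). Among named genes, 979 of 991 values of the difference among lines stayed called or stayed uncalled under the other alternatives, 7 lost and 5 gained the call. A direction was not compared for these values. Of 1825 effects in a line 1781 kept direction and call, 43 lost the call and 1 reversed. The reversal was SEMA3A in MP41, at -0.082 (edgeR, adjusted p = 0.647) with GC content and length offsets. The replicate block ended the difference of ATP2A2 (adjusted p = 0.0649) and the MEL202 call of FBN2 (adjusted p = 0.0913). With 1 MEL202 DMSO library left, leaving out the pair of samples ended the MEL202 call of PRKCZ, PLPP3, SPRED2, COL4A4, CSRNP1, LEF1, FBN2, PLEKHA7 and PLCB1, the 92-1 call of JUN and the difference of SPRED2. With 1 MP41 DMSO library left, leaving out that pair ended the MP41 call of PRKCZ, TP53I3, COL4A4, LEF1, FBN2, CTGF, SEMA3A and LDHA and the difference of COL4A4 and MITF. Low counts limit genes under 1 CPM in a line, such as RTN4RL1, COL4A4 and PLCB1 in MP41.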
